A study of Mus musculus with 2 samples.

Results

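The melanocytes of newborn mouse epidermis were the 934 cells, of 19488 kept from 2 mice, in which at least 20 unique molecular identifiers (UMIs) of Dct, Pmel and Mlana together and at most 20 UMIs of Krt14 and Krt5 together were counted. A UMI marks 1 captured transcript, so that PCR copies are counted once. Both animals were male newborns (postnatal day 0) of the strain C57BL/6J and lacked Chrm3, which encodes an acetylcholine receptor of the muscarinic type, by knockout (KO). The KO is carried by every cell of the animal and not by 1 lineage, and each mouse gave 1 single-cell RNA-sequencing library of epidermis that had been parted from the dermis overnight and cleared of dead cells. No wild-type library was analysed here, so every value below is a level in KO epidermis and no effect of the genotype was tested. The study's methods name version 3.1 of the 10x chemistry, whereas the labels name version 1.

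Melanocytes are pigment cells that descend from the neural crest, enter the epidermis before birth and settle in it and in its hair follicles. They build melanin in melanosomes, organelles that mature from fibrillar, unpigmented stages to pigmented ones, and pass these on to keratinocytes (KCs). The transcription factor Mitf, acting with Sox10 and Pax3, drives the genes of pigment synthesis, and the receptors Kit, Ednrb and Mc1r receive signals that keep the cells alive, bring them into the epidermis and set the kind of pigment they make.

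Of the 10816 and 15867 barcodes deposited for KO mouse 1 and KO mouse 2, 7607 and 11881 held 900 to 7700 genes and under 10% mitochondrial UMIs. Melanocytes were 369 of these in KO mouse 1, a share of 4.85% with an exact 95% binomial interval of 4.38 to 5.36%, and 565 in KO mouse 2, a share of 4.76% (4.38 to 5.15%), or 4.80% ± 0.0674 (SD, n = 2 mice). Intervals cover counting error only. The melanocytes held 3656639 UMIs in KO mouse 1 and 5892393 in KO mouse 2, with medians of 8658 and 9205 UMIs and of 2837 and 2918 genes per cell. Mitochondrial transcripts took a median of 5.67% and 5.12% of their UMIs.

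The values that chose the cells were far from the limits in most of them. The summed UMIs of Dct, Pmel and Mlana had a median of 73 in KO mouse 1 (20 to 731) and of 83 in KO mouse 2 (20 to 758), beside medians of 1 and 3 UMIs of Krt14 and Krt5. With few keratin UMIs, 20 and 24 cells lay just inside the limit at 20 to 24 melanocyte UMIs, and 10 and 24 cells lay just outside it at 15 to 19. No UMI of the 3 genes was counted in 6381 and 9660 of the kept cells. A further 42 and 115 barcodes held at least 20 melanocyte UMIs and more than 20 keratin UMIs, and of these mixed barcodes 35 and 77 were scored as doublets, against 6 of 369 and 9 of 565 melanocytes. The libraries shared 127 barcode sequences, of which 2 were melanocytes of KO mouse 1 and 2 others melanocytes of KO mouse 2, and none was a melanocyte in both.

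**Figure D1:**
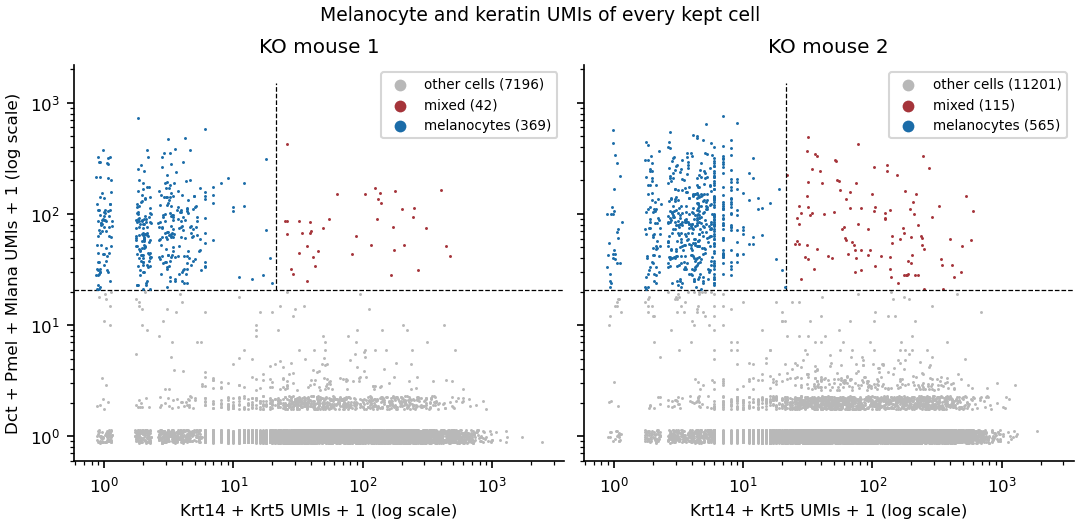
UMIs of Dct, Pmel and Mlana (vertical axis) against UMIs of Krt14 and Krt5 (horizontal axis) in every kept cell of each mouse, both with 1 added and on log scales, with dashed lines at 20 UMIs. Melanocytes are the upper left field (369 and 565 cells) and mixed barcodes the upper right field (42 and 115 cells). Points under 5 UMIs were shifted at random so that they do not hide each other.

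The targeted gene was at the limit of detection in melanocytes. Chrm3 (chr13:9875486-10360847, minus strand, mm10) gave 1 UMI in the melanocytes of KO mouse 1 and 0 in those of KO mouse 2, where a count of 0 allows up to 0.509 CPM (UMIs of a gene relative to all UMIs of the cells in a gate). KCs gave 6 and 17 UMIs, or 0.0858 and 0.149 CPM, so neither cell type can check the label, since a UMI does not show which stretch of the gene was transcribed.

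The upstream sequences of the pigment genes are shown first because several of them carry the letters that Mitf is known to bind, the M-box TCATGTG. The RefSeq promoter table (build GRCm38.p6) holds a window for 16 of the 21 genes in the lists of pigment enzymes and of melanosome ion transport. In the 250 bases before the start, on either strand, TCATGTG stood in 7 of the 16 genes (43.8%), beside 3.72% of the 27025 genes in the table. The 7 were Dct, Tyr, Tyrp1, Slc24a5, Trpm1, Tspan10 and Slc7a11. The shorter E-box core CATGTG, which every M-box contains, stood in 9 of 16 (56.2%, against 13.8% of all genes), the E-box core CACGTG in 4 (25%, against 6.86%) and the Sox motif ACAAAG in 6 (37.5%, against 18.6%). A match describes the letters of the window and is not a measured binding site. The windows of 6 genes to which the results below return are printed 5′ to 3′ on the strand of the gene, ending at the base before the start, with matches to the M-box or to either E-box core, on either strand, in capitals (Dct chr14:118052247-118052496, minus strand; Tyr chr7:87493513-87493762, minus strand; Tyrp1 chr4:80833963-80834212, plus strand; Slc24a5 chr2:125067877-125068126, plus strand; Trpm1, first and second start, chr7:64153585-64153834 and chr7:64185209-64185458, plus strand; Oca2 chr7:56239509-56239758, plus strand).
Dct: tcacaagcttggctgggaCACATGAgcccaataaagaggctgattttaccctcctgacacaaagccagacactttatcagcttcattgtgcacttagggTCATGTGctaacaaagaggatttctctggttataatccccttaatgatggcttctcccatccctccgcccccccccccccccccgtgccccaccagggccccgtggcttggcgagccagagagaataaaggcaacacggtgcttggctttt
Tyr: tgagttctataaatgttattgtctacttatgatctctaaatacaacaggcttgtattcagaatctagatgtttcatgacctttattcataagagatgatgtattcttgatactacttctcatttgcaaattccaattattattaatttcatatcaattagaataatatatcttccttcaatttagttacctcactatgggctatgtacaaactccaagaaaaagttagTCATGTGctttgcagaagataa
Tyrp1: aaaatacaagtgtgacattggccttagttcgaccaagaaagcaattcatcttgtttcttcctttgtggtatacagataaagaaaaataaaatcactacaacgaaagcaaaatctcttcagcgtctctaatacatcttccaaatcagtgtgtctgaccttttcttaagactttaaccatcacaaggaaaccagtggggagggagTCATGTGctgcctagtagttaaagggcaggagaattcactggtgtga
Slc24a5: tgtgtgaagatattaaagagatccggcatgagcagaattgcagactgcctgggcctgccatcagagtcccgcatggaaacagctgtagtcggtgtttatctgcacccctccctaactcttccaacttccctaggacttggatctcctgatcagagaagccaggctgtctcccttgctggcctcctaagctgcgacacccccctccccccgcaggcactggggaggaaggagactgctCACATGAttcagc
Trpm1 first start: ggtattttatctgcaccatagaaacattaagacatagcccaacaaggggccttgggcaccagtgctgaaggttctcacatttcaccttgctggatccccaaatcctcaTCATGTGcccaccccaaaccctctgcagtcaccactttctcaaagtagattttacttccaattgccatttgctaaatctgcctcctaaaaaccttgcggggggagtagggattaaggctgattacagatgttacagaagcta
Trpm1 second start: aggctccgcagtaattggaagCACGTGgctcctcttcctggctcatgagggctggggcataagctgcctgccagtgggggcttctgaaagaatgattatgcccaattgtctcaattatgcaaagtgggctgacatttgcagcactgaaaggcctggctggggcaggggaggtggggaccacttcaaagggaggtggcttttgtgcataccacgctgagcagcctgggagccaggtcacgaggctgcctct
Oca2: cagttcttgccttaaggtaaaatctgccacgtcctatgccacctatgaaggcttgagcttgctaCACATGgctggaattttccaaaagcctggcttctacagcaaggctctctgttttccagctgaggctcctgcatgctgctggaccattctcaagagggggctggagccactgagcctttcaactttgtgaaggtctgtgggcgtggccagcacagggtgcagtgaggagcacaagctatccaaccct

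The M-box began 22 bases before the start in Tyr, 47 bases before the RefSeq start of Tyrp1 and 142 bases before the first start of Trpm1. In Slc24a5 it stood on the opposite strand, 13 bases before the start. GENCODE begins the Tyrp1 gene at 80834123, before that RefSeq start, so the Tyrp1 M-box (chr4:80834166-80834172) lies inside the GENCODE gene. Dct held 2 matches, at 151 bases on its own strand and at 232 bases on the other. The Oca2 window held no M-box but 1 CATGTG, read on the opposite strand 186 bases before the start.

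The levels in melanocytes are described without a test, because the cells were chosen on this very contrast. They are CPM of all melanocytes of a mouse. UMIs were not divided by transcript length, so levels are set beside those of other cells and not ranked between genes, and the gene named as leading a list is the one with the most UMIs. Of 18709 genes, 177 (0.946%) were over 4-fold higher in melanocytes than in all other cells without the mixed barcodes in both mice, and 190 (1.02%) were over 4-fold lower. Among the 12 pigment enzymes and premelanosome proteins, 8 were over 4-fold higher.

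Dct, the dopachrome tautomerase of melanin synthesis (chr14:118012790-118052244, minus strand), was at 4467 CPM in KO mouse 1 and 5507 CPM in KO mouse 2, beside 6.45 and 8.31 CPM in KCs. Pmel (chr10:128704195-128720238, plus strand), which forms the fibrils of the early melanosome, was at 4073 and 4438 CPM, and Mlana (chr19:29697824-29708634, plus strand) at 1345 and 1428 CPM. These 3 chose the cells.

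Tyr, the tyrosinase that starts melanin synthesis (chr7:87424771-87493512, minus strand), was not used to choose the cells and stood at 356 and 366 CPM, with at least 1 UMI in 88.6% and 88.1% of melanocytes. In KCs it was at 0.4 and 0.64 CPM, and it was found in 0% and 0.505% of immune cells, at median depths of 9317 and 9295 UMIs. Tyrp1, an enzyme of a later step towards eumelanin (chr4:80834123-80851719, plus strand), reached 161 CPM in KO mouse 1 and 280 CPM in KO mouse 2 and was found in fewer cells, 35.8% and 46.4%. The glycoprotein gene Gpnmb stood at 745 and 679 CPM. The protease gene Bace2 stood at 388 and 386 CPM. Slc7a11, the cystine carrier needed for pheomelanin, was at 0.547 and 0.849 CPM, beside 0.458 and 0.526 CPM in KCs.

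Of the 9 genes of melanosome ion transport, 4 were over 4-fold higher. Slc24a5 (chr2:125068124-125088677, plus strand), an ion exchanger of the melanosome, was at 644 and 743 CPM, beside 26.9 and 26.6 CPM in KCs. The transporter Slc45a2 was at 295 and 311 CPM and the channel Trpm1 (chr7:64153835-64269775, plus strand) at 350 and 403 CPM. Oca2 (chr7:56239760-56536518, plus strand), a melanosomal anion channel, was at 28.2 and 40.2 CPM and was found in only 10.3% and 15.9% of melanocytes. Of the 35 genes of melanosome sorting and transport, 3 were over 4-fold higher. Among them was Cd63, a tetraspanin that helps to load the premelanosome, at 2226 and 2195 CPM. Rab38, which guides enzymes to the melanosome, went the other way, at 28.7 and 36.7 CPM beside 50 and 49.9 CPM in KCs.

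Transcription factors and receptors of the lineage were present in both mice at like levels. Mitf was at 190 and 184 CPM with a UMI in 71.8% and 75.8% of cells (2.78% and 6.06% of immune cells), Sox10 at 120 and 143 CPM and Pax3 at 319 and 318 CPM. Tfap2b was at 593 and 589 CPM. Snai2, a neural crest factor, was instead lower in melanocytes (6.56 and 5.09 CPM) than in KCs (61.4 and 63.0 CPM). Kit (chr5:75574916-75656722, plus strand), the receptor of stem cell factor, was found in 96.2% and 96.6% of melanocytes (1.67% and 1.01% of immune cells) and stood at 451 and 472 CPM. The endothelin receptor Ednrb was at 488 and 535 CPM and the melanocortin receptor Mc1r at 362 and 481 CPM.

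No ligand of these receptors was over 4-fold higher in melanocytes, and 4 of the 24 listed were over 4-fold lower. Kitl, the ligand of Kit, was at 10.4 and 6.79 CPM in melanocytes and at 86.9 and 82.8 CPM in KCs. Edn1, a ligand of Ednrb, was at 1.64 and 3.56 CPM against 73.5 and 66.1 CPM. Edn3, Asip, Hgf and Nrg1 gave 0 UMIs in the melanocytes of both mice, which allows up to 0.82 and 0.509 CPM.

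**Figure D2:**
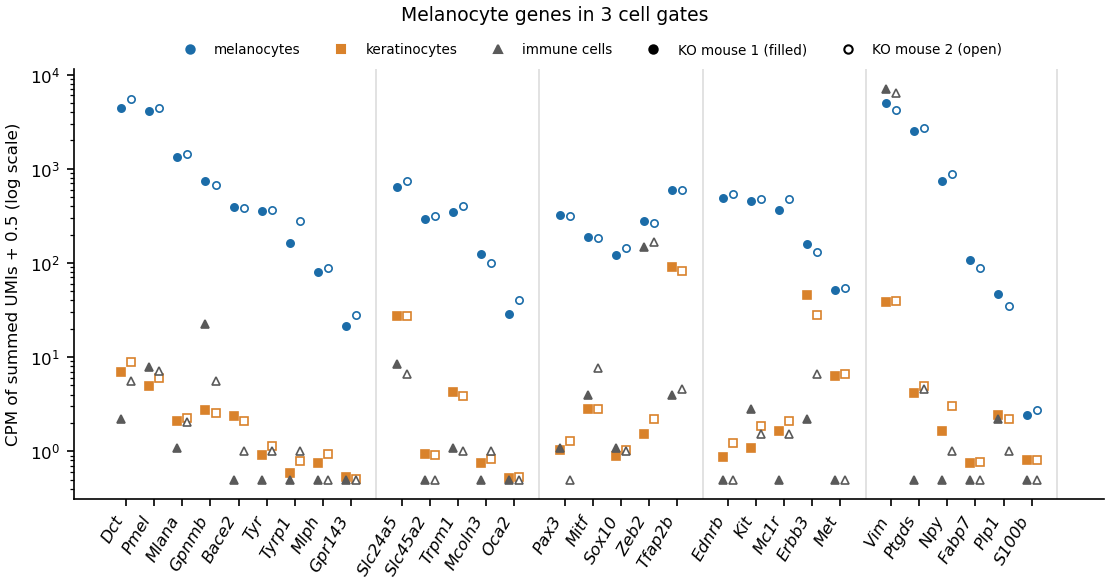
CPM of melanocyte genes in melanocytes, KCs and immune cells, 1 point per mouse, with 0.5 added and on a log scale. Melanocyte points of Tyr lie at 356 and 366 CPM, those of KCs at 0.4 and 0.64 CPM.

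UMIs of both classical cadherins of the basal layer were counted in melanocytes. Cdh1 was at 232 and 193 CPM (144 and 122 CPM in KCs) and Cdh3 at 108 and 95.7 CPM (117 and 105 CPM). UMIs of both were found in 49.6% and 49.2% of melanocytes, of Cdh1 alone in 32.8% and 33.8%, of Cdh3 alone in 7.86% and 8.32%, and of neither in 9.76% and 8.67%. In immune cells, as a background at like depth, Cdh3 was found in 3.33% and 6.06%, and Cdh1, which Langerhans cells also make, in 43.9% and 32.8%. How much of the Cdh1 share in melanocytes is free RNA was not tested. Vim, an intermediate filament gene, was at 4990 and 4162 CPM against 37.5 and 38.7 CPM in KCs, and at 7049 and 6368 CPM in immune cells. Outside the lists, the genes with the highest ratio to other cells included Ptgds, a prostaglandin D synthase gene, at 2500 and 2709 CPM. The neuropeptide gene Npy reached 743 and 876 CPM. Cdk2 (171 and 179 CPM, against 19.8 and 19.7 CPM in KCs) lies on the minus strand at chr10:128697939-128705031. At its own start it overlaps the first bases of Pmel. Whether UMIs of Pmel enter the Cdk2 value was not tested, so that value is uncertain.

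Markers of other cell types were mostly near 0. The 5 mast cell and 6 red cell markers gave 0 UMIs in both mice. The 6 T cell markers in the files summed to 0.547 and 0.849 CPM, with 4 and 2 of them at 0, and were highest for Thy1 and Cd3g. The 11 Langerhans cell and macrophage markers summed to 9.30 CPM, led by Fcer1g, and 51.9 CPM, led by Tyrobp, against 22478 and 21514 CPM in immune cells. The 7 fibroblast markers summed to 39.4 and 22.9 CPM, led by Dcn, and the 7 Merkel cell markers to 2.19 and 0.509 CPM. The 12 Schwann cell markers, which mark the nearest neural crest relatives, were not near 0. They summed to 205 and 161 CPM, led by Fabp7 (108 and 88.1 CPM), with Sox2 and Mal at 0. In KCs they summed to 37.1 and 25.9 CPM and in immune cells to 53.1 and 61.9 CPM.

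KC transcripts were also counted in melanocytes, and more in KO mouse 2. The 14 KC markers summed to 1631 and 4217 CPM, led by Krt10 at 484 and 1343 CPM, with none at 0. In immune cells, which do not make keratins, Krt10 was at 478 and 898 CPM. Of the melanocyte barcodes of KO mouse 2, 2 held over 100 UMIs of Krt1 and Krt10, up to 5425, and without them Krt10 stood at 804 CPM.

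Transcripts of single pigment genes were spread unequally over the cells. The 10% of melanocytes with the most Kit UMIs held 25.2% and 23.1% of them, and for Tyr the share was 35.1% and 34.9%. Tyrp1 was more concentrated, with 70.7% and 65.0% of UMIs in the top 10%, and Trpm1 (70.6% and 67.9%) and Met (71.0% and 67.3%) were like it. Oca2 reached 99.0% and 86.1% on few UMIs. The next comparison therefore asks which other genes differ between melanocytes with much and with little Tyr and Tyrp1.

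In each mouse the melanocytes were split at the median share of Tyr and Tyrp1 in their UMIs, 184 and 282 cells above it (high) and 185 and 283 below or at it (low). The split genes themselves are a description. Tyr was at 525 and 563 CPM in the high cells and at 156 and 162 CPM in the low cells, and Tyrp1 at 280 and 514 CPM against 20.4 and 30.8 CPM. UMIs were summed per mouse and group and tested with edgeR's quasi-likelihood test and Benjamini-Hochberg adjustment over 9595 genes. Sums of 2 mice give 2 residual degrees of freedom, and p-values measure the spread between these 2 animals. At an adjusted p under 0.05, 69 genes rose and 8 fell in the high cells, which is 0.803% of those tested (0.719% higher, 0.0834% lower). With the mouse as a block 303 were higher and 249 lower, the 77 among them, and by DESeq2 40 were higher and 3 lower. The block leaves fewer residual degrees of freedom than the fit without it, here and in the comparisons below.

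Among the genes that rose were genes of the melanosome. Of the pigment enzymes and premelanosome proteins other than Dct, Pmel and Mlana, whose UMIs chose the cells, 3 of 5 tested rose (Bace2, Gpr143 and Mlph) and none fell, with a median log2 fold change of 1.02 beside -0.01 over all genes. A gene was tested when it reached 4.23 CPM in at least 2 of the 4 sums. A gene that entered through 1 group alone is one that differs by that choice. Unless stated otherwise, the list counts in the rest of this paragraph are therefore over genes at the limit in both groups of both mice. In later paragraphs they are over all genes tested unless a sentence says otherwise. Of all genes that reached the limit in both groups, 0.786% were called. Of the melanosome ion transport genes, 3 of 6 rose (median 0.45), and of the sorting and transport genes 5 of 31 (median 0.24). With the mouse as a block 9 sorting and transport genes were higher, over all 33 tested. Without the block, Tfeb of 17 transcription factors and Ednrb and Met of 28 receptor and signalling genes rose (medians -0.06 and -0.13). With the block, over all 19 transcription factors tested, 3 were higher and 2 lower. Of the 3, Irf4 reached the limit in the high cells alone. Over all 30 receptor and signalling genes tested, 3 were higher and 1 lower with the block.

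Oca2 was at 51.3 and 75.4 CPM in the high cells and at 1.16 and 2.57 CPM in the low cells of the 2 mice. It reached the limit in the high cells alone, so these values are a description. Trpm1 was at 557 and 694 CPM against 107 and 94.0 CPM, higher by 2.65 ± 0.13 (SE) on the log2 scale (adjusted p = 1.69e-05). For Slc24a4, a potassium-dependent ion exchanger that also reached the limit in the high cells alone, 151 UMIs were counted in the high cells and 1 in the low cells, a ratio of 134 per UMI sequenced (95% counting interval 23.7 to 5333).

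Of the sorting and transport genes, DESeq2 called 2, Cd63 and Rab38. Of the pigment genes, Mlph, which links the melanosome to its motor, was at 108 and 126 CPM against 47.1 and 49.9 CPM (log2 difference 1.27 ± 0.12, adjusted p = 0.000964 by edgeR). Rab38 rose by 1.59 ± 0.25 and Rab27a, the small GTPase that Mlph binds, by 1.11 ± 0.15. The genes that chose the cells are a description, with Mlana at 1709 and 1935 CPM in the high cells and at 902 and 924 CPM in the low cells. Of the genes whose M-box windows are printed above, Trpm1 and Slc24a5 (0.92 ± 0.11) were used neither for the choice of cells nor for the split and rose. Tspan10, which also holds an M-box, was at 23.4 and 26.2 CPM against 11.1 and 13.2 CPM and did not pass the test (1.02 ± 0.22, adjusted p = 0.0864), but was called with the block (adjusted p = 0.00313).

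Genes outside pigment formation rose in the same cells. Met (chr6:17463800-17573980, plus strand), the receptor of hepatocyte growth factor, was at 80.7 and 87.9 CPM against 15.7 and 17.3 CPM (log2 difference 2.34 ± 0.15, adjusted p = 4.9e-05). Id2 and Id3, inhibitors of DNA binding by basic helix-loop-helix factors, rose by 2.10 ± 0.13 and 1.83 ± 0.16. Id2 stood at 190 and 227 CPM in the high cells and at 46.5 and 50.7 CPM in the low cells. Ednrb was at 635 and 721 CPM against 311 and 351 CPM (1.03 ± 0.10, adjusted p = 0.000979). Tfeb, a regulator of lysosome genes from the family of Mitf, rose by 1.10 ± 0.19 (adjusted p = 0.0303).

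Vim fell from 5913 and 5174 CPM in the low cells to 4103 and 3422 CPM in the high cells (log2 difference -0.56 ± 0.09, adjusted p = 0.0247). Tmsb4x, an actin-binding thymosin gene, was at 747 and 714 CPM against 938 and 1029 CPM (-0.43 ± 0.08). The mitotic gene Nusap1 was lower by 0.68 ± 0.13 on the log2 scale, the only called member of the 16 G2/M genes tested, and none of 20 S genes was called. With the mouse as a block 9 of the 16 were called lower, and Mcm5 of the S genes. DESeq2 called Vim but neither Tmsb4x nor Nusap1, and of the genes named as higher it lost Rab27a and Gpr143, which left 2 of the 5 pigment genes. Of other genes of the lineage, some were called with the block alone. Among the transcription factors and receptors, Irf4, Mitf and Mc1r were then called higher, and Hes1, Nfib and Erbb3 lower. Kit was at 434 and 447 CPM against 461 and 521 CPM (adjusted p = 0.580, and 0.141 with the block). Mitf was at 203 and 221 CPM against 172 and 151 CPM (adjusted p = 0.149), and with the block it was called higher (adjusted p = 0.000884). Mc1r was at 436 and 623 CPM against 269 and 344 CPM (adjusted p = 0.0734). With the block it was called higher as well (adjusted p = 2.38e-11), in the edgeR fit with fewer residual degrees of freedom.

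The high cells were deeper, with medians of 9452 and 10162 UMIs against 8166 and 8499. Medians of Krt14 and Krt5 together were 1 and 3 UMIs against 2 and 3, and those of Krt1 and Krt10 together were 7 and 14 in both groups. The KC markers other than Krt14 and Krt5 had a median log2 difference of -1.09 with none of 11 called, but 9 of 11 lower with the mouse as a block, and of -0.21 once cells with over 20 UMIs of Krt1 and Krt10 were left out.

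The melanocytes of each mouse were put in order of Tyr and Tyrp1 and cut into 5 groups of nearly equal size. These held 73 or 74 cells in KO mouse 1 and 113 in KO mouse 2. For Trpm1, Oca2, Met, Id2 and Mlana most of the rise lay between group 4 and group 5. Tyr itself went from 67.0, 187, 295 and 446 CPM in groups 1 to 4 of KO mouse 1 to 707 CPM in group 5. In KO mouse 2 it went from 61.5, 183, 316 and 452 to 705 CPM. Tyrp1, the other gene of the order, had its own step between groups 4 and 5. It went from 97.7 to 533 CPM in KO mouse 1 and from 180 to 890 CPM in KO mouse 2. This order is a description, with the same split genes. Trpm1 went from 108, 96.4, 139 and 164 CPM in groups 1 to 4 of KO mouse 1 to 1079 CPM in group 5, and from 77.1, 88.4, 127 and 215 to 1229 CPM in KO mouse 2. Oca2 went from 4.51 CPM in group 4 to 113 CPM in group 5, and from 14.7 to 142 CPM. Met went from 24 to 156 CPM and from 23.8 to 159 CPM, and Id2 from 48.1 to 368 CPM and from 84.3 to 384 CPM. Mlana went from 1151 to 2498 CPM and from 1156 to 2679 CPM. Vim went down, from 5857 to 2600 CPM and from 4165 to 1920 CPM. Of the lineage genes, Kit went down from 479 to 393 CPM and from 512 to 367 CPM. Erbb3 went from 171 to 104 CPM and from 143 to 67.8 CPM, and Tfap2b was also lower in group 5 in both mice. Group 5 held the deepest cells, with medians of 11770 and 12540 UMIs against 8007 and 8482 in group 4. Whether depth takes part in the step was not tested.

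**Figure D3:**
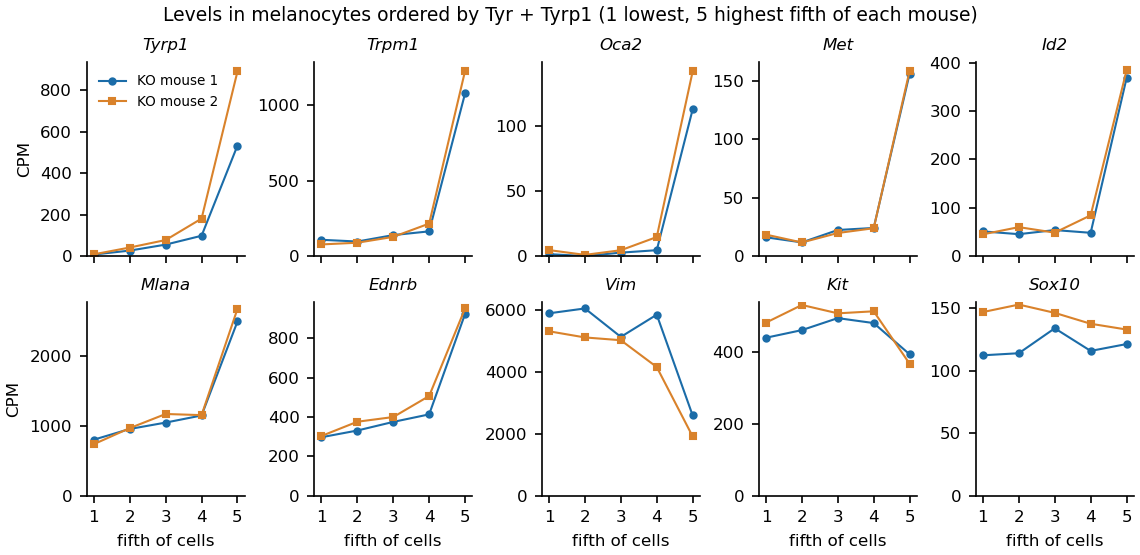
CPM (vertical axes, from 0) of genes in the melanocytes of each mouse, ordered by Tyr and Tyrp1 and cut into 5 groups (horizontal axes, 1 lowest, 5 highest), 1 line per mouse. Trpm1 stays at or under 215 CPM in groups 1 to 4 and reaches 1079 and 1229 CPM in group 5, while Vim is lowest in group 5.

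The other comparisons among melanocytes asked how dividing cells differ from resting ones. Each cell was thinned to 3000 UMIs, which left out 6 and 5 shallower melanocytes, and was classed as G2/M at 3 or more UMIs of 16 G2/M genes, otherwise as S at 8 or more UMIs of 20 S genes, and otherwise as resting. In G2/M were 85 of 363 melanocytes of KO mouse 1, or 23.4% (19.2 to 28.1%, exact 95% binomial), and 93 of 560 of KO mouse 2, or 16.6% (13.6 to 20%). In S were 21 (5.79%) and 37 (6.61%). Just under the G2/M limit, at 2 UMIs, were 15 and 38 cells, and at 3 UMIs were 11 and 14. A cell over both limits was classed as G2/M, so this class can hold cells in S. With a G2/M limit of 6 and the S limit kept at 8, 30 and 53 melanocytes were in S. KCs had 28.9% and 28.6% in G2/M and immune cells 15.6% and 10.1%. Unthinned, G2/M melanocytes held medians of 13980 and 15208 UMIs against 7612 and 8492 in resting ones.

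**Figure D4:**
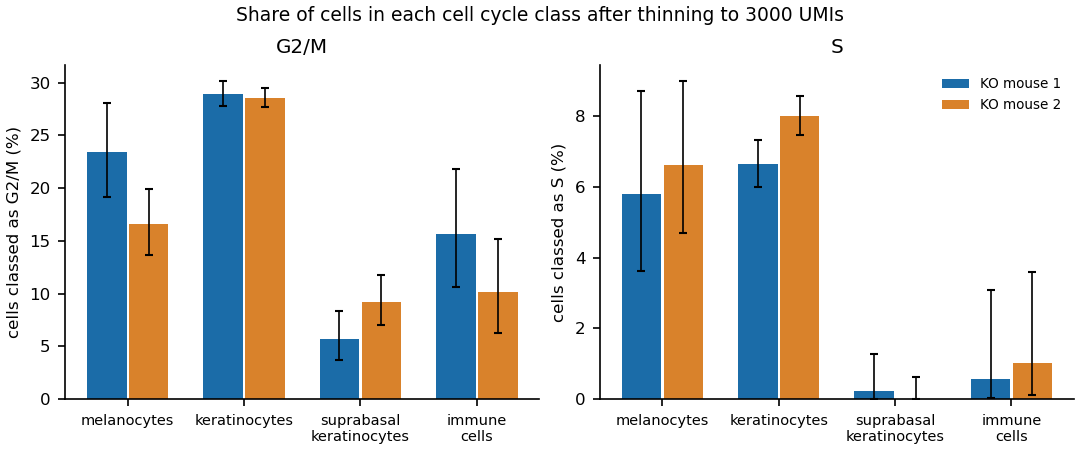
Share of cells (%) classed as G2/M and as S in 4 gates after thinning to 3000 UMIs, 1 bar per mouse with its exact 95% binomial interval. Melanocytes in G2/M are at 23.4% and 16.6%, KCs at 28.9% and 28.6%.

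For G2/M against resting melanocytes, 8731 genes were tested in 1 fit of 6 sums (2 mice, 3 classes), in which S shares the resting cells as its control. The class genes are a description, with Mki67 at 531 and 532 CPM in G2/M and 15.9 and 11.1 CPM in resting cells. At an adjusted p under 0.05, 613 genes were higher and 327 lower in G2/M, 10.8% of those tested (7.02% higher, 3.75% lower). With the mouse as a block 846 were higher and 722 lower, and all 940 were among them. By DESeq2 378 were higher and 50 lower.

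The largest differences outside the class genes were in mitotic genes that reached the limit, here 7.83 CPM, in G2/M cells alone, and they are given as a description. The mitotic kinesin gene Kif20a was counted 119 times in G2/M cells and 2 times in resting cells, a ratio of 146 (95% counting interval 39.4 to 1215). Aspm, a spindle pole gene, was at 80.3 and 67.5 CPM against 0.468 and 1.03 CPM. Fam64a, Esco2, Nek2, Kif23, Kif11, Kif4, Kif2c and Pbk were of the same kind. Of all genes that reached the limit in both classes, 392 were higher and 286 lower, 9.25% together. Among these, Cdkn2c, an inhibitor of Cdk4 and Cdk6, was at 53 and 75 CPM against 14.5 and 15.7 CPM (2.07 ± 0.22, adjusted p = 1.33e-06).

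Some melanosome genes took a smaller part of the UMIs in G2/M. Dct, Pmel and Mlana are left out of these counts, because the minimum of 20 UMIs asks a higher CPM of them in the shallower resting cells. Of the 7 other pigment genes tested, 3 were lower by CPM (Gpr143, Mlph and Tyr) and none higher (median log2 difference -0.56, beside -0.03 over all genes), and with the mouse as a block 5 were lower. Of the ion transport genes that reached the limit in both classes 3 of 7 were lower (median -0.36), and of the transcription factors 6 of 16 (median -0.23). With the block, over all those tested, 5 of 8 ion transport genes were lower, among them Slc24a4, which reached the limit in resting cells alone. Of 17 transcription factors 6 were lower and Nfib and Tbx2 higher. G2/M cells hold more UMIs, and counted per cell 87.5% of all genes tested outside the class genes were higher and 2.09% lower in G2/M in both mice. Per cell 4 of the 7 pigment genes were higher and 1 lower, 5 of the 8 ion transport genes higher and 2 lower, and 14 of the 17 transcription factors higher and none lower.

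Tyr was at 273 and 297 CPM in G2/M against 416 and 419 CPM in resting cells (-0.55 ± 0.11, adjusted p = 0.00162), while a cell held 3.87 and 4.26 Tyr UMIs against 3.46 and 3.79. Sox10 was at 87.0 and 121 CPM against 145 and 160 CPM (-0.55 ± 0.16, adjusted p = 0.0284), with 1.24 and 1.74 UMIs per cell against 1.21 and 1.45. Mitf was at 163 and 163 CPM against 216 and 209 CPM (-0.38 ± 0.11, adjusted p = 0.0397), with 2.32 and 2.33 UMIs per cell against 1.79 and 1.89. Oca2 was lower on both scales, at 19.9 and 24 CPM against 35.5 and 51.5 CPM (-1.02 ± 0.23, adjusted p = 0.00678) and 0.282 and 0.344 UMIs per cell against 0.296 and 0.465. Gpr143 and Slc24a4 were also lower per cell in both mice. DESeq2 called Tyr of the pigment genes, Slc24a5 and Trpm1 of the ion transport genes and Tfap2b and Zeb2 of the transcription factors, but not Sox10, Mitf or Oca2.

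Transcripts of other cells moved with the G2/M class. Of 11 KC markers tested other than Krt14 and Krt5, which chose the cells, 4 were lower (Krt10, Krt15, Lgals7 and Lor, median -0.97), with the mouse as a block 8 were lower and Trp63, which reached the limit in G2/M alone, higher, and by DESeq2 none was called. Lor was so in KO mouse 2 alone, at 43.9 CPM in G2/M against 40.7 CPM in resting cells of KO mouse 1 and at 41.2 against 188 CPM in KO mouse 2, and its log2 difference was 0.11 without replicate 2. Hrnr, Asprv1 and Flg of the cornified layer were among the 10 largest falls. The resting cells of KO mouse 2 include the barcodes with many suprabasal keratin UMIs. Hrnr was lower by 2.06 ± 0.51 on the log2 scale, and by 1.18 (adjusted p = 0.0396) without cells over 20 UMIs of Krt1 and Krt10. Ptn and Dcn, which other cells of the skin also transcribe, were higher in G2/M, and Kitl, at 30.7 and 12.6 CPM there, reached the limit in G2/M alone. More than 4 UMIs of Lhx2, Ptn and Dcn together were found in 7 of 85 and 7 of 93 G2/M cells (8.24% and 7.53%) and in 0.389% and 0.465% of resting cells. Of these 7 and 7 G2/M cells, 2 and 4 were scored as doublets. Without these cells Ptn went from 118 and 57.8 CPM in G2/M to 11.4 and 13.7 CPM and Kitl to 9.53 and 0.805 CPM. The limit removes cells by their own UMIs of Ptn and Dcn, so their fall is no test, and Kitl, which is not in it, was then too rare to be tested. The transcription factors called lower then numbered 4 of 16 tested, without Mitf and Pax3, while Tbx2 was called higher, and of the 7 pigment genes Mlph and Tyr were called lower.

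For S against resting melanocytes, 224 genes were higher and 62 lower (3.28% of 8731; 2.57% higher, 0.71% lower), and with the mouse as a block 390 and 262. The S sums are the smallest, with 21 and 37 cells and 255845 and 462470 UMIs. A limit of 12 in place of 8 S UMIs left 64 calls, and of the 34 named genes called 8 were called again. Tk1, a thymidine kinase gene, was at 42.3 and 73.7 CPM against 5.15 and 6.95 CPM, and reached the limit in S alone. Of all genes that reached it in both classes, 2.99% were called. Of 15 genes of ribosome and mitochondrial biogenesis 4 rose (Eif5a, Hspd1, Ncl and Nop58, median 0.37, beside -0.02 over all genes). With the mouse as a block 8 of the 15 were higher and Cox4i1 lower. The cyclin gene Ccnd1 was at 292 and 308 CPM against 162 and 197 CPM (0.74 ± 0.16).

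Several genes that were higher in cells rich in Tyr and Tyrp1 were lower in S, in comparisons that draw on the same cells. Trpm1 was at 169 and 212 CPM in S against 425 and 487 CPM in resting cells (-1.23 ± 0.14, adjusted p = 2.41e-05). Id2 was at 19.2 and 47.7 CPM against 156 and 161 CPM (-2.10 ± 0.28, adjusted p = 0.000122). Both were lower per cell as well, Trpm1 with 2.10 and 2.65 UMIs against 3.53 and 4.40 and Id2 with 0.238 and 0.595 against 1.30 and 1.45. Oca2 was at 11.5 and 8.67 CPM against 35.5 and 51.5 CPM (-2.19 ± 0.45, adjusted p = 0.00742) and Met at 19.2 and 28.2 CPM against 62.2 and 64.3 CPM (-1.35 ± 0.28, adjusted p = 0.00774), and DESeq2 called neither.

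Of the 7 pigment genes that did not choose the cells, Tyr alone was lower in S by CPM (median -0.52), though not per cell in both mice (3.9 and 3.41 UMIs against 3.46 and 3.79), and per cell 2 of the 7 were higher and none lower in both, beside 66.1% and 6.83% of all genes tested outside the class genes. With the mouse as a block 3 of the 7 were lower (Gpnmb, Tyr and Tyrp1). Of the 7 ion transport genes that reached the limit in both classes Oca2 and Trpm1 were lower (median -0.40), with the block also Slc45a2 and, reaching it in resting cells alone, Slc24a4. Of all 17 transcription factors tested Mitf was lower, at -0.83 ± 0.15 (adjusted p = 0.00285), with 1.48 and 1.49 UMIs per cell against 1.79 and 1.89. With the block Sox10 and Zeb2 were lower as well, and Nfib was higher. S cells were also deeper than resting ones, with medians of 11241 and 12089 UMIs. DESeq2 called Trpm1 and Mitf in S, but not Tyr. None of the 11 KC markers was called in S (median -0.77), and with the mouse as a block 6 were lower.

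**Figure D5:**
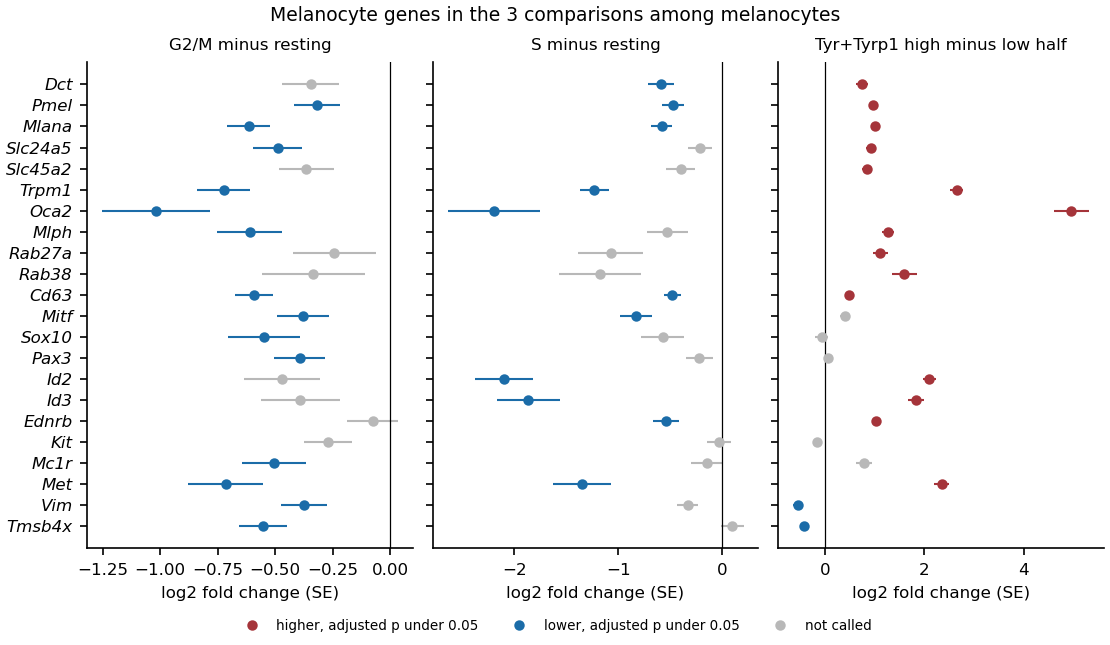
Log2 fold changes (points, with SE as bars) of melanocyte genes in the 3 comparisons among melanocytes, from edgeR on CPM. Trpm1 is at 2.65 in the high against the low cells, at -0.72 in G2/M and at -1.23 in S. Values left of 0 in G2/M are lower by CPM, and for most of the pigment genes the UMIs per cell were not lower. Dct, Pmel and Mlana, which chose the cells, and Oca2 in the high against the low cells, where it reached the low-count limit in the high cells alone, are drawn as a description.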

How the data were processed

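Per the labels and the submitters' processing notes, the authors aligned the reads to mm10 with Cell Ranger 3.0.2 and deposited UMI counts of 27998 genes per barcode, not normalized. Strand handling is not given in the sources used here. The UMI total of a gate in a mouse is its depth, and limits for a count of 0 are 3 counts of that total. Gene positions were taken from GENCODE vM21, which held 98.7% of the gene identifiers.

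The members and the gene lists were chosen with earlier results of these data known. KCs were cells with under 20 melanocyte UMIs, over 20 UMIs of Krt14 and Krt5 and at most 100 of Krt1 and Krt10. Immune cells had few of all these and at least 10 UMIs of Tyrobp, Fcer1g, Cd74, Cd3d and Cd3g. Doublets were scored with Scrublet in scanpy 1.11.5 and called at a score over 0.2 (188 and 500 of the kept cells), because the automatic threshold marked 2 cells of KO mouse 1. They were kept, and left out in an alternative.

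UMIs were summed per mouse and class and tested with edgeR 4.0.16 in R 4.3.3 (TMM, filterByExpr, quasi-likelihood F-test, two-sided, Benjamini-Hochberg adjustment). Named genes were members of the lists, the 10 largest called changes in each direction with the same sign in both mice and at least 20 CPM, and the 30 highest ratios to other cells with 10 CPM added. Other genes that a sentence singles out were chosen from the lists after their values were seen. The sums of 1 mouse come from the same animal, so the mouse pairs them. The deviations of paired sums correlated across genes with r = 0.0162, 0.104 and 0.0917 for the classes of the cycle and 0.182 for the Tyr and Tyrp1 groups. The fits without the block were tested on simulated counts with a known log2 change of 2 in 200 genes over 20 CPM. Counts were drawn with a common dispersion and no mouse effect. Of the 200 genes, 100% were recovered among 8593 genes for G2/M and 93% among 8526 for S. For the Tyr and Tyrp1 groups 100% were recovered among 9445. Unchanged genes called were 11 for G2/M, 8 for S and 10 for the Tyr and Tyrp1 groups. Smaller changes and changes in rarer genes were not simulated. The alternatives were the mouse as a block, no filter on low counts, DESeq2 1.42.0 or only its size factors, and other limits and seeds. A gate for mesenchymal cells held 1 and 2 cells and was not used. Results for some genes are not reported here.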

Additional observations from a re-analysis of the deposited data

Results flagged for a closer look

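Barcodes that the filter on cells removed still held melanocyte transcripts. In KO mouse 1, 25 removed barcodes held at least 20 UMIs of Dct, Pmel and Mlana and at most 20 of Krt14 and Krt5, and in KO mouse 2, 28 did. They drew attention because they lie outside the cells used for every comparison above. Of these, 23 and 25 held 10% or more mitochondrial UMIs and 6 and 7 held fewer than 900 genes. Their median depth was 7214 and 2665 UMIs, with medians of 29 and 31.5 UMIs of the 3 genes. Whether they are damaged melanocytes was not tested.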

How the results depend on the processing

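The share of melanocytes, 4.80% as the mean of 2 mice, follows the limits that define them. It was 3.9% under 5% mitochondrial UMIs, 4.3% with at most 5 keratin UMIs, 5.05% with at most 50 and 5.56% with no such limit. With at least 10 or 60 melanocyte UMIs it was 5.15% or 3.07%, and with doublets removed 4.89%. Limits chosen after seeing the data gave 4.54% (at most 20 UMIs of Krt1 and Krt10) and 4.70% (at most 4 UMIs of Lhx2, Ptn and Dcn). Leaving out 1 mouse gave 4.76% to 4.85%. The share in G2/M, 20%, was 13.9% at limits of 6 and 12 class UMIs and 16.6% to 23.4% in single mice. The share in S, 6.20%, was 1.85% at both those limits together, 4.80% with another thinning seed and 5.79% to 6.61% in single mice. With the G2/M limit alone at 6, the cells in S went up, to 30 and 53.

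Counts of called genes moved with several choices. Pairing the sums with the mouse as a replicate block gave 1568 in place of 940 for G2/M and 652 in place of 286 for S. For Tyr and Tyrp1 it gave 552 in place of 77. All genes called without the block were called with it. The block leaves fewer residual degrees of freedom and was not tried on simulated counts. DESeq2 gave 428 for G2/M and 43 for Tyr and Tyrp1. No filter gave 482 for S and 428 for Tyr and Tyrp1. For S, a G2/M limit of 6 gave 600 and an S limit of 12 gave 64. For Tyr and Tyrp1, at least 60 melanocyte UMIs gave 174 and a split that left out the middle of the order gave 316. Why was not tested. Of 61, 34 and 34 named genes called in the 3 comparisons, DESeq2 lost 34, 12 and 13. With another thinning seed 10 of 61 and 10 of 34 were lost.

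Changes of direction among the named genes that were called were 2, both in G2/M. Lor was at -1.51, at -2.18 without replicate 1 and at 0.11 without replicate 2, the cause of which was not tested. Ptn was at 2.27 and at -0.19 with at most 4 UMIs of Lhx2, Ptn and Dcn, a limit that removes cells by their own Ptn UMIs. With 1 mouse left out there is no residual degree of freedom, so no gene was tested then. In simulation 93% of the changed genes were recovered at the depth of the S sums, the smallest here.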

Other observations

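Immediate early genes were low in melanocytes beside KCs, as a description without a test. Of 15 immediate early and heat shock genes, 5 were over 4-fold lower than in other cells in both mice. Fos, a subunit of the AP-1 factor, was at 38.0 and 24.9 CPM in melanocytes against 528 and 292 CPM in KCs. Egr1, a zinc finger factor induced by growth factors, was at 18.6 and 20.9 CPM against 358 and 211 CPM. The summed level of the list was 3130 and 3143 CPM in melanocytes and 6455 and 4906 CPM in KCs, led in melanocytes by Hspa8 at 1707 and 1781 CPM.

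The 18 muscarinic and nicotinic receptor genes summed to 5.20 and 2.38 CPM in melanocytes, with 10 and 13 of them at 0, and to 3.10 and 3.41 CPM in KCs. Chrnb2 had the most UMIs of them in melanocytes, at 2.46 and 1.02 CPM.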
